A study of Mus musculus with 17 samples.

Results

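The 9 genes described here encode components and receptors of the complement system: the C1q chains C1qa, C1qb and C1qc, the central components C3 and C4b, the alternative pathway factors Cfb and Cfp, and the anaphylatoxin receptors C3ar1 and C5ar1. They were taken by gene name from a list drawn up with earlier results of these data known, and all 9 were found in each of the 3 tables used, which list 16410 genes for tumor cells, 13545 for TRMs and 13407 for MDMs. The cells were sorted from lung tumors of mice with or without an inducible deletion of Gpx4, an enzyme that reduces phospholipid hydroperoxides and protects cells from ferroptosis, and the question addressed is what that deletion in tumor cells goes along with in tumor cells and in their neighbors. All mice carried floxed Lkb1 and a Cre-activated tumor-forming allele (KL), and KLG4 mice carried in addition Gpx4m/m, in which Cre removes a stop cassette in front of DreERT2 and tamoxifen then lets Dre cut out exons 5 to 7 of Gpx4. Per the methods of the study, the mice were 8 to 10 weeks old at the intranasal injection of Ad-Cre, an adenovirus whose labels name no cell-type promoter, and received tamoxifen from week 5 for 2 weeks. KL and KLG4 mice had both treatments, and cells were taken 10 weeks after Ad-Cre. Each of the 6 groups (tumor cells, TRMs and MDMs, each from KL and KLG4) held 2 libraries, and the labels do not say whether they came from separate animals or pools (a legend of the study counts as many mice per tumor cell group as there are libraries), so that p-values measure the spread between these libraries, which may be technical. TRMs and MDMs are abbreviations of the labels, whose long forms and sorting gates are not given in the sources used here, whereas tumor cells were sorted as CD45-CD31-EpCAM+. The remaining 5 samples of the series were not used here.

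Complement is a cascade of plasma and tissue proteins that tags particles for uptake, recruits leukocytes and can form pores in membranes. C1q, built from the A, B and C chains, starts the classical pathway through the proteases C1r and C1s, which cut C4 and C2, and properdin (Cfp) and factor B (Cfb) sustain the alternative pathway, and both routes converge on the cleavage of C3. Fragments C3a and C5a signal through C3ar1 and C5ar1 on myeloid cells. In lung and tumor tissue, macrophages are the best known source of C1q, whereas C3, C4 and factor B are also made by epithelial cells and fibroblasts.

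The values are RPKM, reads per kilobase of gene per megaread counted, so that levels may be compared between genes per length. The total number of counted reads, recovered from the RPKM steps, ranged from 9.14 to 36.6 megareads per library. Several libraries stood apart from the labels or from their group before any complement gene was considered. The KLG4 tumor cell libraries held a summed 333 and 335 RPKM over the 10 leukocyte markers against 27.6 and 39.1 RPKM in KL, and 540 and 552 RPKM over the 10 fibroblast markers against 17.9 and 22.6 RPKM, although the sort was for CD45-negative cells. All 4 MDM libraries held 10730 to 23675 RPKM over 10 neutrophil markers (S100a9 alone 9379 to 21106 RPKM) against 86.1 to 229 RPKM in TRMs, and 432 to 2239 RPKM over 9 detected markers of monocyte-derived macrophages, so that the MDM label is kept below only as the name of these libraries. The second KL library of MDMs (KL replicate 2) was apart from the other 3 in both lists, with 2239 RPKM against 432 to 569 for the macrophage list and 10730 against 18252 to 23675 for the neutrophil list. TRMs held 8516 to 12907 RPKM over 10 alveolar macrophage markers. Mitochondrial genes took 14.7% and 14.8% of the reads in KLG4 tumor cells against 7.38% and 8.26% in KL, 2.95% and 5.78% in KLG4 TRMs against 22.3% and 31.5% in KL, and 0.921% and 1.33% in KLG4 MDMs against 2.75% and 7.31% in KL. Female and male transcripts were both read in all 4 tumor cell libraries, with Xist at 4.17 to 6.18 RPKM, Eif2s3y at 7.27 to 9.26 RPKM and Ddx3y at 8.61 to 17.1 RPKM, and whether a library held more than 1 animal was not tested. In TRMs Xist was at 18.3 and 20.2 RPKM in KLG4 against 0.257 and 0.501 RPKM in KL, so that sex and genotype cannot be told apart there. Gpx4, counted over all its exons, was at 56.4 and 61.9 RPKM in KLG4 tumor cells and at 94.95 and 76.8 RPKM in KL (log2 fold change -0.53 ± 0.15 SE, adjusted p = 0.036, limma). Its values in TRMs were 53.8 and 57.0 RPKM for KLG4 beside 89.8 and 88.2 RPKM for KL (-0.68 ± 0.15, adjusted p = 0.0697), and in MDMs at 93.6 and 97.7 RPKM against 44.9 and 71.3 RPKM (0.76 ± 0.28, adjusted p = 0.679).

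The 3 C1q genes lie next to each other in the order C1qb, C1qc, C1qa on the minus strand within 18.7 kb (chr4:136880129-136898803, GRCm38), and all 9 members lie on the minus strand of their chromosomes. C1qb spans chr4:136880129-136886187, C1qc chr4:136889804-136893065 and C1qa chr4:136895917-136898803. C3 spans chr17:57203970-57228136, C4b chr17:34728380-34743882 and Cfb chr17:34856374-34862518. Cfp lies at chrX:20925454-20931555, C3ar1 at chr6:122847138-122856161 and C5ar1 at chr7:16246743-16259540. All 9 have the same start and end in GENCODE M21, where each is protein coding. C4a, a near-identical neighbor of C4b, was at most at 0.36 RPKM in any library, and reads that map to both copies may have been split or dropped. Cfb overlaps the read-through gene Gm20547 on the same strand, whose reads came to 96.7% to 107% of those of Cfb in the 12 libraries, so that the same reads were largely counted for both and the value of Cfb includes any read-through transcript.

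The sequences in front of C1qb, C1qc and C3 are shown because the neighboring C1q chains kept like ratios in most libraries and C3 was the most abundant member in tumor cells and MDMs, and because transcription factors of myeloid and inflamed cells are known to act in front of such genes. RefSeq (GRCm38.p6) gave a start site window for 6 of the 9 members. Each run reads 5′ to 3′ on the strand of the gene and ends at the base before the RefSeq start, except that of C1qc, from which 151 bases that GENCODE places inside the gene were left out. Capitals mark matches on either strand to 1 of 5 motifs, in short forms without overlap here: PU.1 (GAGGAAGT), ISRE (GAAANNGAA), GAS (TTCNNNGAA), C/EBP (TTNNGCAA) and NF-kB (GGGANNTTC). The windows are chr4:136886201-136886450 for C1qb, chr4:136893066-136893164 for C1qc and chr17:57228137-57228386 for C3, all on the minus strand.
C1qb: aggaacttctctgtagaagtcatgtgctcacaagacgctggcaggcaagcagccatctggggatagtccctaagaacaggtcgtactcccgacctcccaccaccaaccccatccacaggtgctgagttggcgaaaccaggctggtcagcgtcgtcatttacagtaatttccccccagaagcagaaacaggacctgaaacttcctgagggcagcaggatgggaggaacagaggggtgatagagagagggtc
C1qc: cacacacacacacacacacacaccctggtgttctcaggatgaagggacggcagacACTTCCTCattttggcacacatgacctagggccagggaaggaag
C3: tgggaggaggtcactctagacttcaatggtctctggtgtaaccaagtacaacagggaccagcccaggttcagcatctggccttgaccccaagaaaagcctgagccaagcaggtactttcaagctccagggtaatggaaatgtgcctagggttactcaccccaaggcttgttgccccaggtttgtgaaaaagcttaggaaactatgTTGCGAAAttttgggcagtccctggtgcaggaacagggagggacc
The capitals in C1qc are a PU.1 match on the opposite strand, 195 to 188 bases before the RefSeq start, and those in C3 are a C/EBP match on the opposite strand, 45 to 38 bases before it. The letters of no motif were in the 250 bases before C1qb, Cfp or C3ar1, and those before C5ar1 held an ISRE match at 66 to 58 bases, within the 202 bases of that window that GENCODE places inside the gene. Among 32807 windows of 250 bases the PU.1 letters were in 2.44%, ISRE in 7.12%, GAS in 7.02%, C/EBP in 9.57% and NF-kB in 3.23%. At least 1 of the 5 was in 25.9% of the windows. The short forms were chosen after the sequences had been seen, so that these shares do not gauge the matches shown. A match describes letters and no binding.

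In tumor cells all 9 members were higher in KLG4 than in KL, in both libraries and at an adjusted p under 0.05, where 20.6% of the 13770 genes tested in that table were called higher. C1qc, C3ar1 and C5ar1 reached 1 RPKM in neither KL library, and C1qb and Cfp in only 1. These genes passed the filter of 1 RPKM in 2 libraries only with the KLG4 group, so that their call follows in part from the filter. The median log2 fold change of the 9 was 3.70, against -0.09 over all genes tested. In TRMs no member passed an adjusted p under 0.05, where 1.8% of 10990 genes did in either direction, 3 members were higher at the threshold used in the study (unadjusted p under 0.05 and at least 2-fold), where 12% of genes were, and 5 met its p-value without regard to size, as did 28.3% of genes. In MDMs no member was called by limma by either rule, where 0% of 10475 genes passed an adjusted p under 0.05 and 4.11% the threshold of the study, and 0 members met an unadjusted p under 0.05 against 6.74% of genes.

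**Figure D1:**
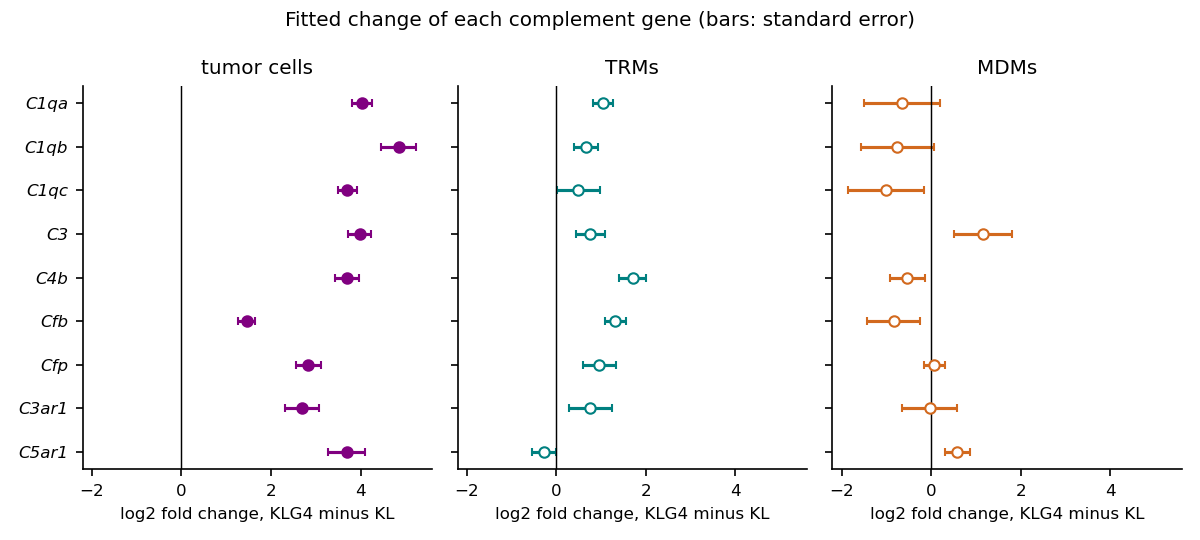
Log2 fold change (KLG4 minus KL, log2(RPKM + 0.1) scale) of the 9 complement genes, 1 panel per population, with the standard error as bars and filled points for an adjusted p under 0.05. All 9 points are filled and lie between 1.45 and 4.85 in tumor cells, and all are open in TRMs and MDMs.

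The C1q chains, by which the classical pathway begins, were low in KL tumor cells and rose in KLG4 tumor cells, and the values in TRMs and MDMs given below were not tested against them. C1qa was at 1.31 and 2.03 RPKM in KL tumor cells and at 28.9 and 28.0 RPKM in KLG4 (log2 fold change 4.04 ± 0.23 SE, adjusted p = 0.000329). C1qb was at 0.452 and 1.15 RPKM in KL, from 18 and 38 reads, and at 24.1 and 23.8 RPKM in KLG4 (4.85 ± 0.39, adjusted p = 0.000742), the largest fitted difference among the 9. C1qc was at 0.537 and 0.514 RPKM in KL, from 38 and 30 reads, and at 8.98 and 7.25 RPKM in KLG4 (3.71 ± 0.20, adjusted p = 0.000315). Neither KL library reached a KLG4 library for any chain, with ratios of the means of 17.0, 29.8 and 15.4.

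In TRMs the 3 chains stood closer together between the genotypes. C1qa was at 14.7 and 13.7 RPKM in KL and at 25.0 and 34.8 RPKM in KLG4 (log2 fold change 1.05 ± 0.22, unadjusted p = 0.00338, adjusted p = 0.0651, limma). C1qb was at 17.7 and 12.9 RPKM in KL and at 20.3 and 28.6 RPKM in KLG4 (0.67 ± 0.26, adjusted p = 0.166). C1qc overlapped between the groups, with 7.15 and 2.61 RPKM in KL and 5.49 and 6.87 RPKM in KLG4 (0.50 ± 0.48, adjusted p = 0.519), and its difference was -0.22 without KL replicate 2. The median of all genes was also shifted in TRMs, by a log2 fold change of 0.38, and after rescaling to reads outside mitochondrial genes, which brought that median to 0.00, C1qa differed by 0.66 (adjusted p = 0.194), C1qb by 0.28 and C1qc by 0.11.

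In MDMs 1 library set the C1q values. C1qa was at 24.2 and 24.4 RPKM in KLG4 and at 15.96 and 92.7 RPKM in KL, C1qb at 17.8 and 18.5 RPKM in KLG4 and at 13.1 and 71.2 RPKM in KL, and C1qc at 5.42 and 5.93 RPKM in KLG4 and at 4.77 and 27.4 RPKM in KL. The higher KL value in each was that of KL replicate 2, the library with the higher macrophage and the lower neutrophil markers, whose part in the C1q values was not tested. The fitted differences were -0.66 ± 0.85 for C1qa, -0.75 ± 0.82 for C1qb and -1.01 ± 0.84 for C1qc (adjusted p = 0.791, 0.759 and 0.708, limma). Without KL replicate 2 they turned to 0.61, 0.46 and 0.24, with no gene of the table called, whereas leaving out KL replicate 1 gave -1.92, -1.97 and -2.26, each with an adjusted p of 0.0188 (limma), beside 2682 of 10475 genes called, in fits that assume the lone KL library to vary like the KLG4 pair.

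The chains kept a like ratio to each other while their level ranged widely. Summed over the 3 chains, C1q ranged from 2.30 RPKM in a KL tumor cell library to 191 RPKM in KL replicate 2 of MDMs. The ratio of C1qa to C1qb lay between 0.829 and 1.36 in the 10 libraries other than KL tumor cells, and was 1.76 and 2.91 in KL tumor cells, where C1qb rested on few reads. C1qc stood below C1qb per length in all libraries but 1, at ratios of 0.202 to 0.445 in 11 libraries and 1.19 in KL replicate 1 of tumor cells.

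**Figure D2:**
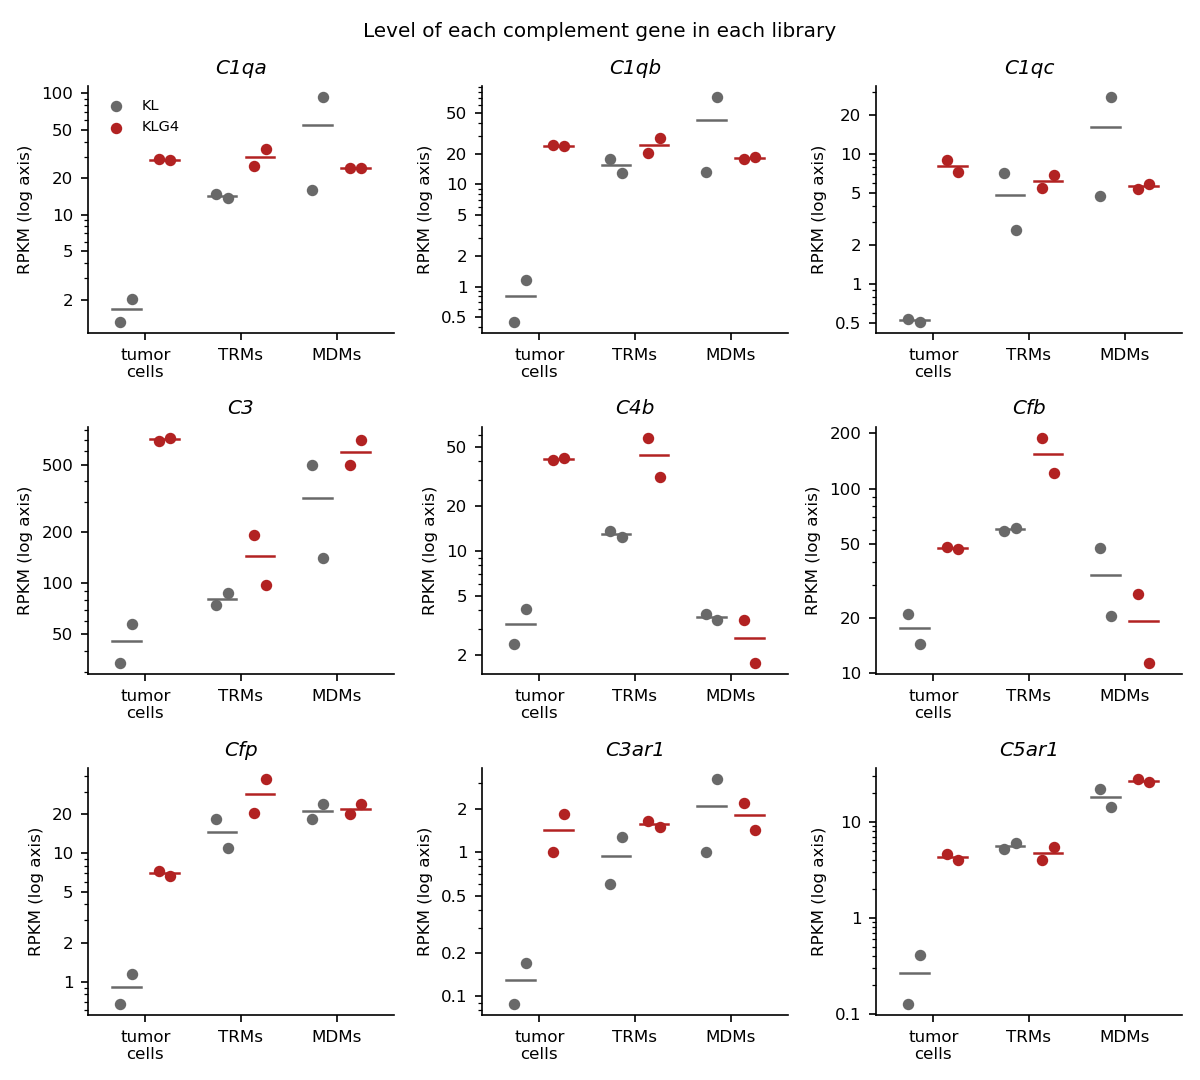
RPKM of each of the 9 complement genes (log axis) in the 12 libraries, by population, with KL in gray, KLG4 in red and a line at the mean of the 2 libraries of a group. KL tumor cells hold the lowest value of 7 of the genes, C1qa through C3 and Cfp through C5ar1, and KL replicate 2 of MDMs stands apart for the C1q chains.

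C4b, cut by the C1q-bound proteases, was lower than C3 in every library. In tumor cells it was at 2.38 and 4.06 RPKM in KL and at 41.0 and 42.0 RPKM in KLG4 (log2 fold change 3.70 ± 0.26, adjusted p = 0.00051). In TRMs it was at 13.6 and 12.4 RPKM in KL and at 57.3 and 31.7 RPKM in KLG4 (1.71 ± 0.30, unadjusted p = 0.00139, adjusted p = 0.0544), the largest difference among the 9 in TRMs. The KLG4 libraries of TRMs lay above the KL ones, and the adjusted p ranged from 0.018 to 0.126 over the other settings, with a difference of 1.32 after the rescaling to reads outside mitochondrial genes. The adjusted p was 0.00586 without KLG4 replicate 2 and 0.0387 without KL replicate 2, and 0.103 without KLG4 replicate 1 and 0.085 without KL replicate 1. In MDMs C4b was at 3.78 and 3.45 RPKM in KL and at 3.42 and 1.77 RPKM in KLG4, with both KLG4 libraries lower, by a log2 fold change of -0.53 ± 0.38 (adjusted p = 0.693), which was -0.08 without KLG4 replicate 2 and -0.99 without KLG4 replicate 1.

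C3, on which the pathways converge, was the most abundant member in KLG4 tumor cells and in MDMs. In tumor cells its level rose, with KL at 34.0 and 57.6 RPKM and KLG4 at 691 and 714 RPKM (log2 fold change 3.98 ± 0.25, adjusted p = 0.000408), and its rank among the genes of a library went from 1599 and 971 to 71 and 69. In TRMs it was at 74.4 and 87.7 RPKM in KL and at 193 and 97.3 RPKM in KLG4 (0.76 ± 0.33, adjusted p = 0.195). The TRM groups did not overlap, but the lower KLG4 library lay near the KL range, and without it (KLG4 replicate 2) the difference was 1.25 (adjusted p = 0.0381), while without KLG4 replicate 1 it was 0.27 (adjusted p = 0.678). In MDMs C3 was at 495 and 696 RPKM in KLG4 and at 497 and 141 RPKM in KL (1.15 ± 0.64, adjusted p = 0.679). The low value was that of KL replicate 2, and without KL replicate 1 the difference was 2.06 with an adjusted p of 0.0194, whereas without KL replicate 2 it was 0.24 (adjusted p = 0.683). By group mean C3 ordered as KLG4 tumor cells, KLG4 MDMs, KL MDMs, KLG4 TRMs, KL TRMs and KL tumor cells. Neighbors in that order overlapped in their ranges except KLG4 against KL TRMs and KL TRMs against KL tumor cells, and steps between populations were not tested, since each has a table of its own.

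Cfb, the alternative pathway protease, had its highest values in TRMs. It was at 59.0 and 61.4 RPKM in KL TRMs and at 187 and 121 RPKM in KLG4 TRMs (log2 fold change 1.32 ± 0.24, unadjusted p = 0.00145, adjusted p = 0.0544). After the rescaling to reads outside mitochondrial genes its difference was 0.93, and with TMM scaling and limma-voom 0.93 and 0.95, under the 2-fold limit of the study. As for C4b the adjusted p ranged on both sides of 0.05, from 0.0236 to 0.129 over other settings, and was 0.00918 without KLG4 replicate 2 and 0.0375 without KL replicate 2, but 0.112 without KLG4 replicate 1 and 0.0932 without KL replicate 1. In tumor cells Cfb was at 20.8 and 14.4 RPKM in KL and at 48.4 and 46.9 RPKM in KLG4 (1.45 ± 0.20, adjusted p = 0.00365), the smallest difference among the 9. Its adjusted p was 0.0574 without KLG4 replicate 1 and 0.0546 without KLG4 replicate 2. Cfb in MDMs was at 47.8 and 20.5 RPKM in KL and at 26.9 and 11.4 RPKM in KLG4, overlapping between the groups (-0.84 ± 0.60, adjusted p = 0.691).

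Cfp, the properdin that stabilizes the alternative pathway convertase, was at 0.676 and 1.16 RPKM in KL tumor cells and at 7.28 and 6.66 RPKM in KLG4 (log2 fold change 2.83 ± 0.28, adjusted p = 0.00127). In TRMs it was at 18.3 and 11.0 RPKM in KL and at 20.6 and 37.5 RPKM in KLG4 (0.96 ± 0.37, adjusted p = 0.163). Cfp is on the X chromosome, and the TRM groups differed in Xist as given above, so that sex and genotype cannot be told apart in this value. In MDMs it stood between 18.3 and 24.1 RPKM in all 4 libraries (0.07 ± 0.24, adjusted p = 0.915). Xist was at 0.839 RPKM in KL replicate 2 of MDMs, which also stood apart in the macrophage and neutrophil lists, and at 19.4 to 21.8 RPKM in the others, and its bearing on Cfp was not tested.

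The receptors were the lowest members in tumor cells. C3ar1, the receptor for C3a, was at 0.0888 and 0.169 RPKM in KL, from 14 and 22 reads, and at 1.00 and 1.84 RPKM in KLG4 (log2 fold change 2.70 ± 0.39, adjusted p = 0.00439). With quantile scaling its difference was 1.21 with an adjusted p of 0.113, whereas the calls of the other 8 members in tumor cells held under quantile scaling. C5ar1, the receptor for C5a, was at 0.128 and 0.412 RPKM in KL, from 12 and 32 reads, and at 4.63 and 4.01 RPKM in KLG4 (3.69 ± 0.42, adjusted p = 0.00201). In TRMs C3ar1 was at 0.604 and 1.27 RPKM in KL and at 1.63 and 1.502 RPKM in KLG4 (0.76 ± 0.49, adjusted p = 0.340), and C5ar1 at 5.21 and 6.04 RPKM in KL and at 3.97 and 5.39 RPKM in KLG4 (-0.27 ± 0.26, adjusted p = 0.515). In MDMs C3ar1 overlapped, with 1.00 and 3.20 RPKM in KL and 2.17 and 1.42 RPKM in KLG4 (-0.04 ± 0.62, adjusted p = 0.987). C5ar1 was highest in MDMs, where neutrophil markers were highest, at 21.9 and 14.4 RPKM in KL and 27.7 and 25.9 RPKM in KLG4, with the KLG4 libraries above (0.59 ± 0.27, adjusted p = 0.679). Without KL replicate 1 that difference was 0.89 with an adjusted p of 0.0259, and without the neutrophil-poorer KL replicate 2 no member was called.

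Counted by overlap, the KLG4 pair lay above the KL pair for 9 members in tumor cells, for 7 in TRMs and for 1 in MDMs, where 32.5%, 53.7% and 25.4% of all genes tested did so. In MDMs 1 member lay below, against 19.1% of genes, and 7 overlapped. In TRMs the members' median log2 fold change was 0.76 and in MDMs -0.53, against 0.38 and 0.02 over all genes tested. After the rescaling to reads outside mitochondrial genes the TRM differences were 0.37 for C3, 0.57 for Cfp, 0.41 for C3ar1 and -0.66 for C5ar1. The monocyte-derived macrophage list was also higher in KLG4 TRMs, summing to 703 and 771 RPKM against 439 and 433 RPKM in KL (5 of 8 listed markers higher in both libraries, none lower), as was the pan-macrophage list, at 14248 and 12048 RPKM against 10261 and 11073 RPKM (8 of 10 higher), and their part in the TRM values was not tested.

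The increase of the members in tumor cells went along with markers of several cell types that the sort was not for, and in bulk RNA a change in the number of cells of a type cannot be told apart from a change in RNA per cell. Ptprc, which encodes CD45, was at 0.834 and 2.06 RPKM in KL tumor cells and at 26.7 and 27.4 RPKM in KLG4. All 10 leukocyte markers, all 10 pan-macrophage markers (271 and 358 RPKM summed in KL against 1270 and 1311 RPKM in KLG4), all 8 detected markers of monocyte-derived macrophages (39.0 and 42.3 against 467 and 470 RPKM) and all 10 fibroblast markers were higher in both KLG4 libraries. Also higher in both KLG4 libraries were 8 of 9 neutrophil markers (630 and 599 against 2776 and 2702 RPKM), all 10 T cell markers (5.85 and 6.57 against 75.2 and 81.7 RPKM) and 8 of 9 plasma cell markers (199 and 210 against 1995 and 2025 RPKM). The exceptions made the larger part of the KL sums of their lists, Ltf among neutrophil markers (440 and 305 against 427 and 445 RPKM) and Sdc1 among plasma cell markers (180 and 167 against 68.4 and 67.1 RPKM). All 10 epithelial markers were lower (9172 and 6864 against 3938 and 3959 RPKM). All 10 AT2 markers were lower as well (3639 and 4099 against 1260 and 1277 RPKM), whereas all 8 club cell markers were higher (3498 and 4238 against 7451 and 7575 RPKM), and of the 9 alveolar macrophage markers listed 5 were higher and 3 lower (76.8 and 87.9 against 405 and 412 RPKM summed). No fibroblast or leukocyte marker was at 0 in any tumor cell library. The part of these cells in the complement values was not tested.

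**Figure D3:**
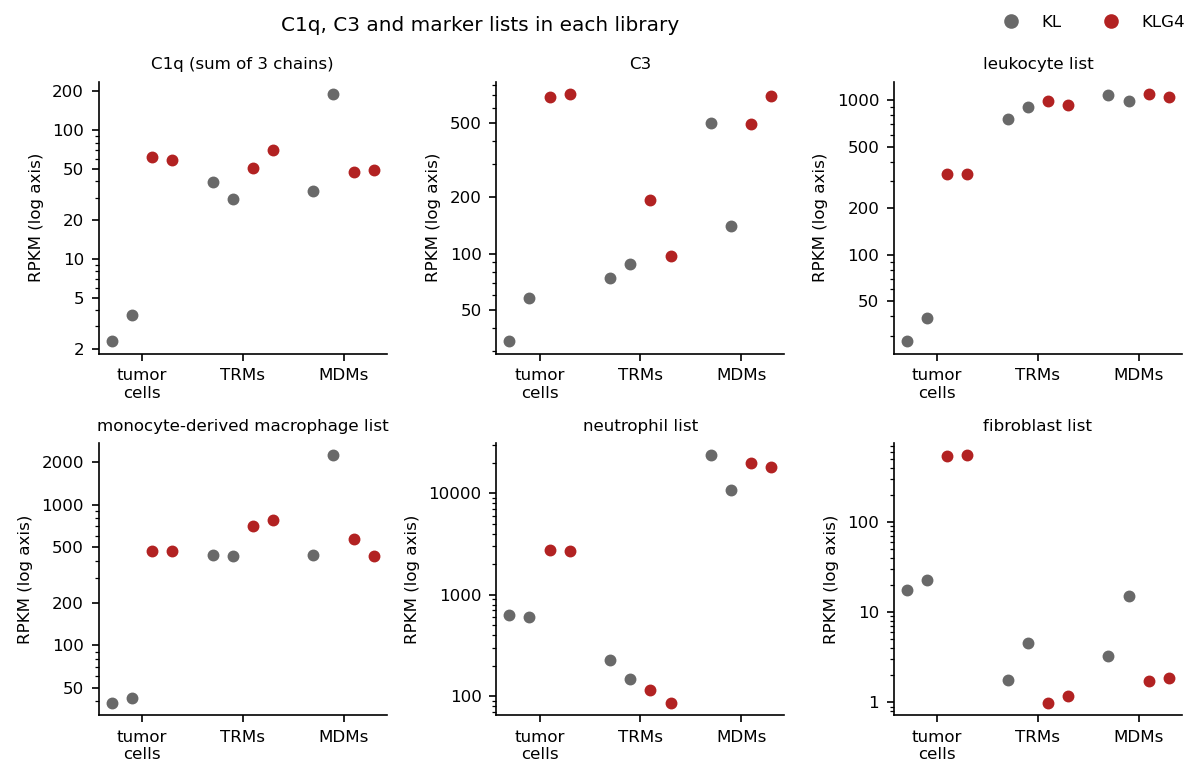
Summed RPKM of C1qa, C1qb and C1qc, RPKM of C3, and summed RPKM of the leukocyte, monocyte-derived macrophage, neutrophil and fibroblast marker lists (log axes) in each of the 12 libraries, with KL in gray and KLG4 in red. The KLG4 tumor cell libraries are above the KL ones in all 6 panels, and in MDMs KL replicate 2 is high for C1q and the macrophage list and low for C3 and the neutrophil list.

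Ratios to these markers were taken within each library. The C1q sum relative to Ptprc came to 2.32 and 2.16 in KLG4 tumor cells beside 2.76 and 1.79 in KL, so that the groups overlapped, and C3 relative to Ptprc came to 25.8 and 26.1 in KLG4 libraries beside 40.8 and 27.9 in KL ones. Against the leukocyte list the order of C3 was the other way, at 2.08 and 2.13 in KLG4 and 1.23 and 1.47 in KL. Relative to the leukocyte and pan-macrophage lists C1q stood higher in KLG4, at 17.6 and 18.6 per 100 RPKM of leukocyte markers against 8.34 and 9.46, and at 4.50 and 4.88 per 100 RPKM of pan-macrophage markers against 0.850 and 1.04. Most of the pan-macrophage sum was Lyz2, at 214 and 269 RPKM in KL and 796 and 831 RPKM in KLG4, so that this ratio rests largely on 1 gene. C1qa relative to Csf1r rose less, from 1.30 and 1.63 in KL to 3.72 and 3.41 in KLG4. C5ar1 relative to Ptprc overlapped as well, at 0.147 and 0.173 against 0.153 and 0.199, whereas Cfp relative to Ptprc was lower in KLG4, at 0.243 and 0.272 against 0.563 and 0.811, and so was C3ar1, at 0.0374 and 0.0672 against 0.107 and 0.0819. C3 relative to the fibroblast list was 1.28 and 1.29 in KLG4 tumor cells and 1.90 and 2.54 in KL, and C4b relative to it was 0.0759 and 0.0761 beside 0.133 and 0.179.

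The TRM and MDM libraries held C3 at low levels of fibroblast markers. In TRMs the fibroblast list summed to between 0.995 and 4.61 RPKM beside 74.4 to 193 RPKM of C3, and in MDMs to between 1.73 and 15.3 RPKM beside 141 to 696 RPKM. C3 and C4b moved together in tumor cells, where their ratio was 14.2 and 14.3 in KL and 16.9 and 17.0 in KLG4, and stood at other ratios elsewhere, 3.07 to 7.09 in TRMs and 40.7 to 392.3 in MDMs. C3 and Cfb did not keep a ratio in tumor cells, with 1.63 and 4.005 in KL against 14.3 and 15.2 in KLG4, and stood near each other in TRMs, at 0.804 to 1.43.

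**Figure D4:**
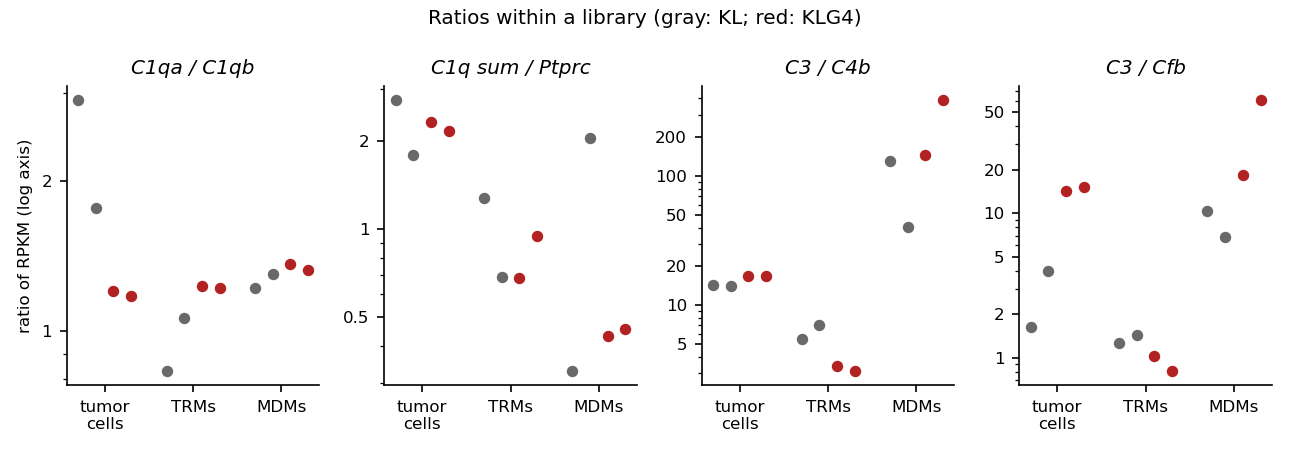
Ratios of RPKM within each of the 12 libraries (log axes) for C1qa to C1qb, the C1q sum to Ptprc, C3 to C4b and C3 to Cfb, with KL in gray and KLG4 in red. C3 to C4b stays between 14.2 and 17.0 in tumor cells while C3 to Cfb rises to 14.3 and 15.2 in KLG4.

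Of 44 other complement genes compiled by role, 27 were listed in the tumor cell table and 19 were tested. Of these, 11 were higher and 3 lower in KLG4 at an adjusted p under 0.05, beside the 20.6% and 19.6% of all genes called in these directions. Their median log2 fold change was 2.80, and 4 of them (C1rb, C2, C5ar2 and Cd93) reached 1 RPKM in neither KL library. C7 and Itgax reached it in only 1, so that all of these had passed the filter only with KLG4 libraries. The proteases of the classical pathway rose with C1q, with C1s1 at 102 and 101 RPKM in KLG4 against 4.08 and 4.79 RPKM in KL (4.49 ± 0.13, adjusted p = 7.8e-05) and C1ra at 54.1 and 57.9 against 2.55 and 2.95 RPKM (4.30 ± 0.14). C7, a component of the membrane attack complex, had the largest difference, with 0.927 and 2.33 RPKM in KL libraries beside 76.1 and 82.2 RPKM in KLG4 ones (5.65 ± 0.40, adjusted p = 0.000514). Serping1, the C1 inhibitor and a fluid-phase regulator, rose by 4.28 ± 0.24 on the log2 scale, to 94.5 and 99.0 RPKM. Among receptors C5ar2 (4.29), Itgam (4.10), Itgax (3.59) and Itgb2 (3.52), the chains of complement receptors 3 and 4 in the case of the integrins, and Cd93 (2.13) were higher, as were C1rb (4.22) and C2 (2.80). C1ra and C1rb are near-identical copies and C2 overlaps Gm20547, so that their counts are uncertain.

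The 3 lower genes were Fcna, a ficolin of the lectin pathway (8.77 and 6.64 RPKM in KL against 1.61 and 2.19 RPKM in KLG4, -1.97 ± 0.24, adjusted p = 0.0025), Cfi, which inactivates C3b (-0.96 ± 0.16), and Clu, clusterin (5380 and 4529 against 2526 and 2547 RPKM, -0.96 ± 0.16, adjusted p = 0.00673). The membrane regulators Cd55 and Cd59a, which protect cells from their own complement, did not pass the test, with differences of 0.27 ± 0.11 (adjusted p = 0.115) and 0.14 ± 0.19 (adjusted p = 0.574), and Hc, which encodes C5, was at 2.28 and 3.24 RPKM in KL and 3.74 and 4.04 RPKM in KLG4 (0.50 ± 0.22, adjusted p = 0.131). The remaining tested genes were Masp2, a protease of the lectin pathway (-0.85 ± 0.27, adjusted p = 0.0574), and Cr1l (0.16 ± 0.19, adjusted p = 0.524).

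In TRMs 11 of the other complement genes were tested and 1 was called, beside 1.8% of all genes, Itgax, which was at 58.3 and 73.9 RPKM in KL and at 182 and 191 RPKM in KLG4 (1.502 ± 0.18, adjusted p = 0.0352) and was not called after TMM scaling, after rescaling to reads outside mitochondrial genes or without the trend. At the threshold of the study Itgam (1.13 ± 0.24), Cd93 (1.04 ± 0.31) and Fcna (1.99 ± 0.72) were higher as well and Clu lower (-2.30 ± 0.66), where 12% and 2.04% of genes were. The epithelial markers, whose part in the value of Clu was not tested, summed to 66.6 and 107 RPKM in KLG4 TRMs against 135 and 153 RPKM in KL, and to 19.3 and 62.3 RPKM in KLG4 MDMs against 79.8 and 275 RPKM in KL. In MDMs 14 were tested, of which limma called 0 after adjustment and 3 before it, beside 0% and 6.74% of all genes, the latter also those at the threshold of the study, which 4.11% of genes met: C1s1 (0.662 and 0.639 RPKM in KLG4 against 1.58 and 2.77 RPKM in KL, -1.55 ± 0.40), Clu (-2.91 ± 1.00) and Cd46, which passed the filter only through KLG4 (1.05 ± 0.34).

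**Figure D5:**
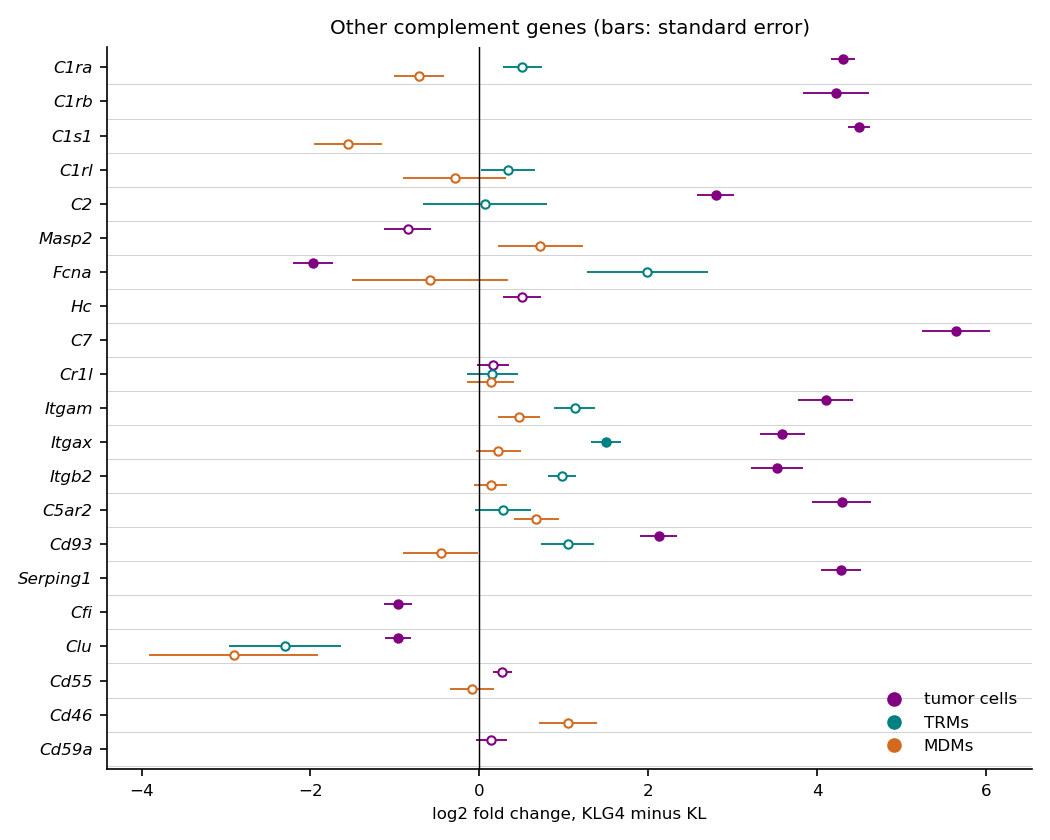
Log2 fold change (KLG4 minus KL, log2(RPKM + 0.1) scale) with the standard error of the other complement genes tested in each population, filled where the adjusted p was under 0.05. In tumor cells 14 points are filled, 11 of them to the right of 0 and 3 to the left, in TRMs 1 is filled (Itgax) and in MDMs none.

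The pattern of the members over the 12 libraries was compared with that of 7944 genes present in all 3 tables, by Pearson r of log2(RPKM + 0.1). The libraries share groups, tables and depth, so that r describes these libraries only. The genes most like the mean of the C1q chains were Apoe (r = 0.987), Aif1 (0.978), Cd86 (0.960), Itga4 (0.954) and Cd300ld5 (0.946), and Apoe, itself on the monocyte-derived macrophage list, went from 33.4 and 36.5 RPKM in KL tumor cells to 441 and 446 RPKM in KLG4 and stood at 2074 RPKM in KL replicate 2 of MDMs. Among the members C3ar1 (0.930), Cfp (0.870) and C5ar1 (0.803) lay nearer to the C1q chains than C3 (0.568), C4b (0.352) or Cfb (0.328). The genes most like C3 were Ckap2l (0.949), Rps6ka2 (0.935), Chst11 (0.925), Itpkb (0.923) and Hsd11b1 (0.919), and r with C3 was 0.146 for C4b and -0.03 for Cfb. Ckap2l was at 1.36 and 2.19 RPKM in KL tumor cells, 55.5 and 57.3 RPKM in KLG4 tumor cells, 5.89 to 12.6 RPKM in TRMs and 9.98 to 30.7 RPKM in MDMs.

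The agreement of the KLG4 tumor cell libraries bears on all calls in that table. The chi-square of their read counts was 3.28 per gene over 16259 genes, where independent reads would give about 1 and the other 5 pairs gave 28.9 to 132. Counting both mates of a pair raises that to about 2 at most. The pair was kept as 2 libraries, and a comparison with counting noise does not tell separate mice from separate preparations of the same RNA. With either of them left out, the direction of all 9 members held. The smallest difference was that of Cfb, at 1.43 without KLG4 replicate 1 and 1.48 without KLG4 replicate 2. Such fits take the spread from the KL pair alone and cannot show how far KLG4 mice vary.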

How the data were processed

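The 12 libraries of sorted tumor cells, TRMs and MDMs were grouped and numbered by sample title, 2 per group. As the labels and the study's methods give it, poly(A) RNA was sequenced without strand in 150-base pairs, and Trim Galore (0.6.4), HISAT2 (2.0.5) and featureCounts (2.0.0) are named in the submitters' processing notes, with GRCm38 as build. The authors deposited RPKM values in 1 table per population, without a factor between libraries, together with their own fold changes and p-values, which were not used. Counting without strand leaves overlapping genes uncertain, and counting both mates of most pairs makes the noise larger than the read totals imply. Depth was recovered from the RPKM steps, which gave values close to whole reads for 99.99% to 100% of the genes checked, those of known length and lower counts. A length was known for 93.9% of the genes of MDMs, 95.7% of those of TRMs and 99.99% of those of tumor cells.

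Each table was tested alone with limma (3.58.1, run in R 4.3.3), two-sided and with a mean-variance trend. The scale was log2(RPKM + 0.1), genes had to reach 1 RPKM in 2 or more of 4 libraries, and p-values were adjusted by Benjamini-Hochberg over the table. This scale understates the change of low genes. The study names DESeq2, but the values are not counts. The tests were checked on simulated data with the same spread for every gene and library, a check that does not cover libraries that stand apart from their group. Alternatives were the pseudocount, the filter, quantile and TMM scaling, rescaling to reads outside mitochondrial genes, no trend, limma-voom on recovered reads, the replicate number as a block and leaving out each library. Fits with a library left out assume that the lone library of a group varies like the other pair, in all 3 populations, so that their p-values describe little more than that pair.

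Named were all 9 members, the other complement genes that were called after adjustment (where none was, those meeting the study's threshold), up to the 10 largest with a group mean of at least 1 RPKM, Ptprc and the 3 most abundant genes of a marker list touched, and the 5 genes most like C1q and C3. Further members of these lists were named for context after their values were seen, and the short motif forms were chosen after the sequences had been seen. The members and lists were chosen with earlier results of these data known. A further complement gene was left out of the list and is not reported here, and genes of the list that did not reach the filter are given as counts. Python 3.11.15 and pandas 2.3.3 were used.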

Additional observations from a re-analysis of the deposited data

Results flagged for a closer look

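Among the 9 members and the other complement genes, 6 pairs of populations stood out because every library of one population moved one way between KL and KLG4 and every library of the other the opposite way. None of these differences between populations was tested, since each population has a table of its own. They are 6 of the 59 comparisons made for these genes, or 10.2%, beside 15.1% of 29123 comparisons over all genes tested. Opposite directions were thus no more frequent among these genes than in general, and the values below are given as description.

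C4b was higher in both KLG4 libraries of tumor cells (log2 fold change 3.70) and of TRMs (1.71) and lower in both KLG4 libraries of MDMs (-0.53), so that the differences between the changes were 4.23 and 2.24. The MDM value rests on 1 library, as it was -0.08 without KLG4 replicate 2. C1ra went the same ways, with 4.30 in tumor cells, 0.51 in TRMs and -0.72 in MDMs, and differences of 5.02 and 1.22. C1s1, the protease that acts beside C1r, was higher in KLG4 tumor cells (4.49) and lower in KLG4 MDMs (-1.55), a difference of 6.05. Fcna was lower in KLG4 tumor cells (-1.97) and higher in KLG4 TRMs (1.99), a difference of -3.95.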

How the results depend on the processing

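In tumor cells the direction of all 9 members held under every alternative run. A mean of at least 5 RPKM left 5 members tested and called, 5 also at the threshold of the study, and 9 of the other complement genes called in place of 14. In that run 3284 of all 7029 genes tested were called, and 1486 met the threshold of the study. In TRMs the members called, 0 in the report, were 2 with a pseudocount of 1, limma-voom or the replicate block and 3 with a mean of at least 5 RPKM. All genes called in these runs were 490 of 10990, 761 of 10659, 470 of 10990 and 557 of 5796, against 198 of 10990 in the report. Members at the threshold of the study went from 3 to 1 with TMM scaling, rescaling to reads outside mitochondrial genes or limma-voom. All genes higher at that threshold went from 1322 of 10990 to 470 of 10889, 492 of 11316 and 445 of 10659. The other complement genes called in TRMs were 2 with a pseudocount of 1 or the replicate block, 3 with a mean of at least 5 RPKM or limma-voom and 0 with TMM scaling, that rescaling or no trend. Leaving out a library gave 0 to 3 members called in TRMs, 3 to 5 at the threshold of the study and 1 to 2 other genes, and in MDMs 0 to 5, 0 to 4 and 0 to 5, the upper values all without KL replicate 1. C1qc in TRMs ranged from -0.215 to 1.21, and in MDMs C1qa ranged from -1.92 to 0.606, C1qb from -1.97 to 0.462, C1qc from -2.26 to 0.245, Cfp from -0.12 to 0.265 and C3ar1 from -0.829 to 0.755 (0.0723 with quantile scaling and 0.058 with limma-voom). The cause was not tested.

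Of all genes tested in tumor cells, 2843 were called higher and 2700 lower, against 2585 and 4130 with quantile scaling and 3078 and 1984 with TMM scaling, and 5543 in all became 3284 with a mean of at least 5 RPKM and 1990 and 1927 without the first and the second KLG4 replicate. In TRMs 150 higher and 48 lower became 11 and 25 with TMM scaling, and the count of 198 ranged from 12 without the trend to 761 with limma-voom, and from 113 to 2382 with a library left out. In MDMs it went from 0 to 2682 without KL replicate 1. Same-numbered libraries did not deviate together (r = 0.0187 in tumor cells, -0.0596 in TRMs, 0.0545 in MDMs). With 1 pair of libraries per genotype this cannot exclude a pairing, least of all in tumor cells, where the KLG4 pair was close. As a block the replicate number changed no member's direction. Members under 1 RPKM rest on 12 to 43 reads, and with 2 libraries per group changes smaller than this spread were not detectable.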
